A study of Mus musculus with 4 samples.

Results

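Replication-dependent histone genes code for the core histones H2A, H2B, H3 and H4 and the linker histone H1 that package newly made DNA. They were taken here by name, as all non-control probes whose gene name begins with Hist1h, Hist2h, Hist3h or Hist4h, and each signal was expressed as a multiple of the 75th percentile of its array. This gave 51 probes for 47 genes among the 39429 probes and 31829 gene names of the array. The number well above background ran from 46 to all 51 on single arrays. On all 4 arrays, 46 of the 51 probes were well above background, and 19 (37.3%, against 20.5% of all probes) exceeded the 75th percentile.

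Total RNA came from mouse embryonic fibroblasts (MEFs, primary connective tissue cells grown from embryos) of the C57BL/6J strain, harvested while growing logarithmically. The genotypes were CycG2-/- (G2KO), CycG2+/+ (its WT, here G2WT), CycG1-/-CycG2-/- (DKO) and CycG1+/+CycG2+/+ (the WT of DKO, here G1G2WT), each on 1 single-color Agilent array. CycG1 and CycG2 are cyclins G1 and G2, relatives of the cyclins that drive the cell cycle. The mutants are constitutive knockouts, and how many embryos or cultures went into each RNA is not given in the sources used here. The study attributes higher Xist in its G2KO MEFs to the female origin of these cells. Sex may therefore differ along with genotype in the G2KO comparison, and it was not checked on these arrays.

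With 1 array per genotype, no difference between a mutant and its own WT could be tested, and the difference between the WT arrays is the only measure of how far 2 MEF preparations with the same label lie apart. Ccng1, whose coding exons were replaced in the mutant, had signals of 9.45 on the G2WT array, 1.98 on the array labelled G2KO and 1.66 on the G1G2WT array. On the DKO array its probe did not rise well above background, at least 228-fold lower than on its WT array. Ccng2 did not separate the genotypes, with signals of 0.104, 0.0910, 0.0806 and 0.0619 in the same order, and whether its probe lies in the deleted part was not checked.

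The G2WT array stood apart from the others. Cdkn2a, an inhibitor of cyclin-dependent kinases, had a signal of 0.0157 there, against 24.3 on the array labelled G2KO, 23.3 on the G1G2WT array and 5.09 on the DKO array. Of 10 fibroblast marker genes, 8 were well above background on that array and all 10 on each of the other 3. Col1a1, Col1a2, Vim and Fn1 were at 37.2 or more on every array, but other fibroblast markers were not even. Thy1 had signals of 0.461 on the G2WT array, 53.1 on the array labelled G2KO, 61.5 on the G1G2WT array and 3.42 on the DKO array, and Postn had 0.566, 10.9, 21.6 and 0.116 in that order. Pdgfra lay at background on the G2WT array and had 1.75, 5.22 and 0.0296 on the others. Dcn went the other way in DKO, with 0.0722, 0.757, 2.95 and 49.0 in the same order of arrays. In the DKO comparison it was at 4.05, and the other 9 fibroblast markers were below 0. The largest log2 ratios among these markers were those of Postn (-7.54) and Pdgfra (-7.46) in the DKO comparison and of Pdgfra (at least 7.93) and Thy1 (6.85) in the G2KO comparison. All 10 mesothelial marker genes were well above background on the DKO array, with a summed level of 149 against 0.612 to 1.71 on the other arrays, where 3 to 5 were. Their largest log2 ratios were those of Krt18 (at least 11.23) and Upk1b (at least 9.89) in the DKO comparison and of Krt19 (4.18) and Krt7 (-2.60) in the G2KO comparison. The summed level of 5 macrophage markers was 1.03 to 3.65, with Cd14 (3.05) and Cd68 (at least 1.59) furthest from 0 in DKO and Adgre1 (-0.30) and Cd68 (-0.30) in the G2KO comparison. That of 4 endothelial markers was 3.08 to 4.43, with Tek (-1.58) and Kdr (-0.14) furthest in DKO and Cdh5 (at least 1.52) and Kdr (-0.54) in the G2KO comparison. Because the array labelled G2KO was closer to the other WT array than its own WT was in such genes, every direction drawn from the G2KO comparison, from the comparison of the WT arrays and from counts of probes highest on the G2WT array holds only as the arrays are labelled. The study lists Cdkn2b and Pdgfra as lower in G2KO, opposite to the direction of the arrays as labelled. The part of these differences between the cultures in the histone signals was not tested.

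Replication-dependent histone genes lie in clusters and are transcribed mostly in S phase, when DNA is copied. Their mRNAs have no introns and, unlike other mRNAs, end in a conserved stem-loop instead of a poly(A) tail. SLBP binds this stem-loop, and the U7 small nuclear ribonucleoprotein directs the cleavage that forms the end. The labelling reaction was primed with oligo-dT, which anneals to poly(A) stretches. How much of each histone signal came from polyadenylated molecules was not tested.

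On the mm9 positions that the files give, 37 probes (34 genes) lay on chromosome 13 between 21814057 and 24026527, the Hist1 cluster. Another 10 probes (9 genes) lay on chromosome 3 between 96024171 and 96074115, the Hist2 cluster. The 3 Hist3 probes were on chromosome 11 and the Hist4h4 probe was on chromosome 6. The array probes, 60 bases each, are shown where they bear on what a histone signal can mean. The stem-loop motif GGCTCTTNNNAGAGCC, searched on the sense strand, occurred whole in 5 of all 39429 probes, and all 5 were histone probes. They are printed with up to 5 bases on either side and the motif in capitals, since the mRNA is cut just after the stem-loop. In Hist2h2aa1 the motif begins at base 7 of the probe and 38 bases follow it, so that most of the probe lies beyond the stem-loop, while in the other 4 probes it begins at bases 39 to 42.

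Hist2h2aa1: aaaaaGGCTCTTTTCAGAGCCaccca
Hist2h2bb: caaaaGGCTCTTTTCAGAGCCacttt
Hist1h3a: ccaaaGGCTCTTTTCAGAGCCaca
Hist1h3g: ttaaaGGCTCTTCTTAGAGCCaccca
Hist1h3i: caaaaGGCTCTTTTCAGAGCCccctc

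The brightest histone probes were of another kind. A set of 6 H2A probes lies at the end of the coding region, down to the stop codon, with a shared run of 11 bases, in capitals. They are shown because they are nearly alike, so that a signal cannot be assigned to 1 of these genes with certainty.

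Hist1h2ah: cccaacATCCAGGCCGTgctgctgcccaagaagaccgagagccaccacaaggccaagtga
Hist1h2af: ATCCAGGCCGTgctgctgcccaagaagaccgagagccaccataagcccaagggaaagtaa
Hist2h2ac: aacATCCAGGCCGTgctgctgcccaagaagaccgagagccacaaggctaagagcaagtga
Hist1h2ak: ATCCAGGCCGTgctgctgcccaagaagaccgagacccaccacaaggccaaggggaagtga
Hist1h2an: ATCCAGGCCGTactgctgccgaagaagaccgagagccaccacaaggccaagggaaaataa
Hist2h2aa2: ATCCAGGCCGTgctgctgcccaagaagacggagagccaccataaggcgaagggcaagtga

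In all, 11 histone probes shared a run of at least 25 bases with another histone probe. The 7 of them named Hist1h2af, Hist1h2ag, Hist1h2ah, Hist1h2ak, Hist1h2an, Hist2h2aa2 and Hist2h2ac also shared one with the probe of H2afj, a replication-independent H2A gene, or with that of RP23-480B19.10. Hist1h3c and Hist1h3f shared a run of 36 bases. The probes of Hist2h2ac and Hist2h2aa2 are given overlapping positions on chromosome 3, although their sequences differ. The levels of these genes are therefore uncertain as levels of single genes.

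Histone signals spanned several orders of magnitude within each array. On the G2WT array they ran from 0.0122 to 131 times the 75th percentile, with a median of 1.08 against 0.0534 for all probes. The median was 0.730 on the array labelled G2KO, 0.499 on the G1G2WT array and 0.450 on the DKO array. Every histone probe is spotted once per array, so its error is that of 1 spot. The scanner software gave a median error of 10.0% of the signal on each array, and repeated spots of other probes had a median SD of 0.058 to 0.093 on the log2 scale.

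**Figure D1:**
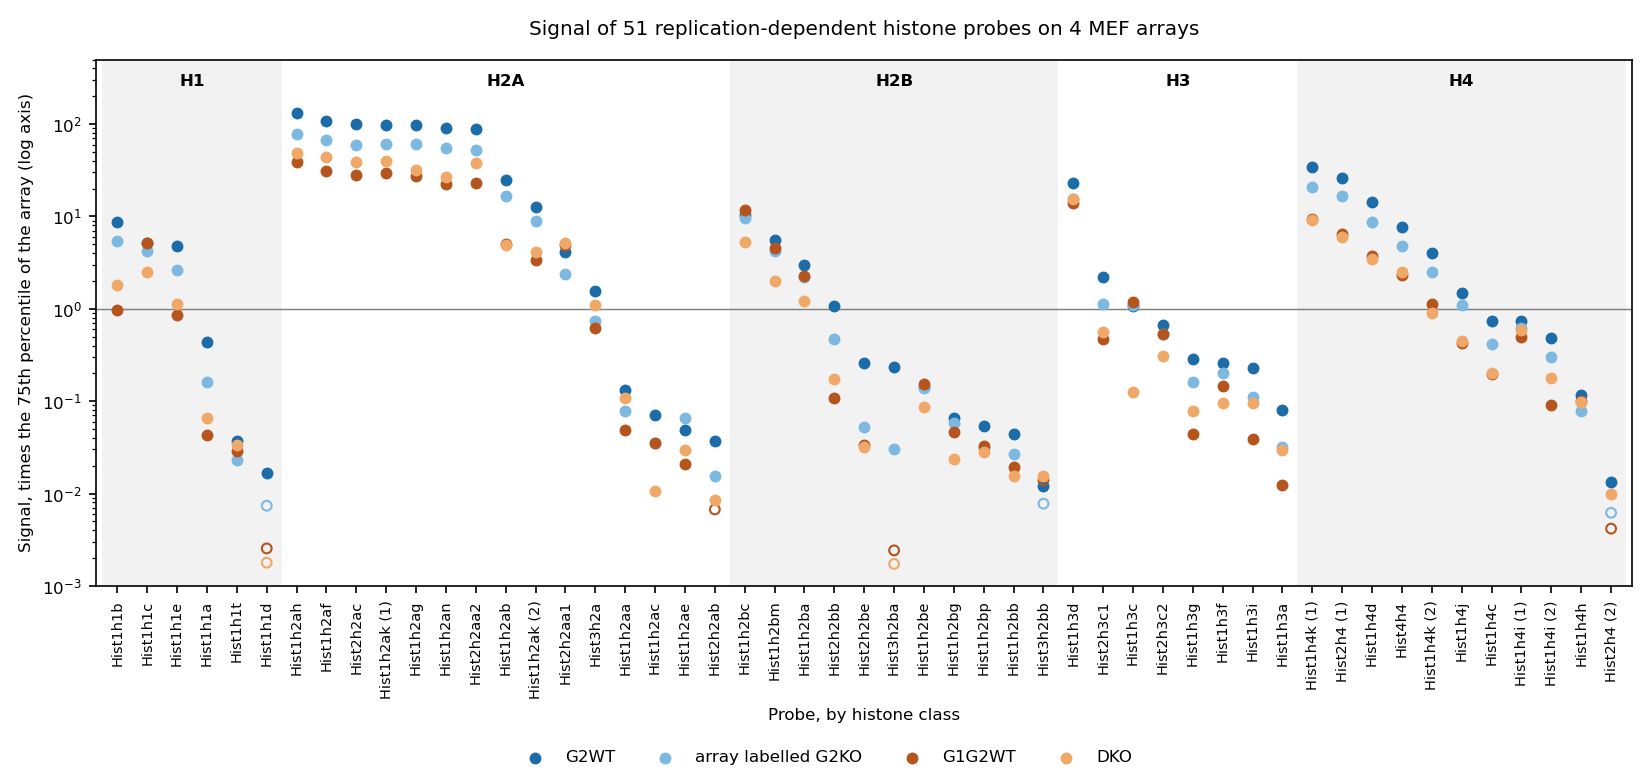
Signal of each of the 51 histone probes (x axis, grouped by histone class) on the 4 MEF arrays, as a multiple of the array's 75th percentile (log axis, line at 1). Each point is 1 spot, and open circles were not well above background. The G2WT array is highest for 44 of 51 probes.

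The arrays kept nearly the same order for most histone genes. The G2WT array was highest for 44 of 51 probes, where 34.1% of all probes had it highest, and it was followed by the array labelled G2KO for 36, against 12.5% of all probes. The lowest array was G1G2WT for 27 probes (18.8% of all probes) and DKO for 20 (28.2%). The most frequent full order was G2WT, array labelled G2KO, DKO and G1G2WT, for 23 probes. The next exchanged only the lowest pair, for 13 probes. The spot error is close to the gap between the lower pair in many of these probes, so their order is often not resolved.

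The core histones that form the nucleosome with H3 and H4 are H2A and H2B, and H2A gave the brightest probes. Hist1h2ah had signals of 131 on the G2WT array, 78.9 on the array labelled G2KO, 38.7 on the G1G2WT array and 48.2 on the DKO array. Hist1h2af had 109, 67.5, 30.7 and 44 in the same order, and the brighter probe of Hist1h2ak had 98.3, 60.7, 29.4 and 39.5. Each of the 3 was highest on the G2WT array and lowest on the G1G2WT array. By median, the H2A probes had a level of 24.7 on the first of these arrays and 5.06 on the second.

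The 3 brightest H2B genes behaved otherwise. Hist1h2bc, the brightest H2B gene, had signals of 10.4, 9.55, 11.6 and 5.26 in the order of arrays used above, with only DKO below the rest. Hist1h2bm had 5.60, 4.20, 4.53 and 1.99, and Hist1h2ba, known as a testis-specific H2B, had 2.97, 2.22, 2.27 and 1.20. In these 3 genes the WT arrays lay within 1.31-fold of each other or closer and the DKO array was lowest.

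For H3, Hist1h3d had signals of 23.1, 15.6, 14.0 and 15.3, so that the 3 arrays other than G2WT were nearly level. Hist2h3c1 had 2.22, 1.12, 0.473 and 0.564. Hist1h3c had 1.07, 1.11 and 1.18 on the first 3 arrays and 0.125 on the DKO array, which alone was low.

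Among H4 genes, the brighter probe of Hist1h4k had signals of 34.1, 20.6, 9.33 and 9.26, that of Hist2h4 26.3, 16.6, 6.43 and 5.93, and Hist1h4d 14.5, 8.80, 3.72 and 3.49. In each the DKO array and its WT lay close together, with log2 ratios between -0.12 and -0.01, inside the spot error.

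The linker histones H1 bind the DNA between nucleosomes. Hist1h1b had signals of 8.67, 5.47, 0.979 and 1.82, and Hist1h1e 4.76, 2.65, 0.850 and 1.13. Both followed the common order. Hist1h1c did not, with 5.13, 4.19, 5.16 and 2.48, nearly equal on the WT arrays and lowest on DKO.

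The first comparison asks how histone signals differ between arrays of the same nominal genotype. Between the G1G2WT array and the G2WT array, 50 histone probes could be compared, and 33 were at least 2-fold lower in the former, while none was 2-fold higher. Of all probes, 9.9% were lower by that much and 11.8% higher, 21.7% in all. At least 4-fold lower were 14 histone probes, against 2.65% of all probes (7.21% in either direction). Lower by any amount were 45 of 50, against 55.2% of all probes. The median log2 ratio was -1.78, a 3.42-fold difference, against -0.08 over all probes compared.

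The largest differences were in Hist3h2ba, an H2B gene of the small Hist3 cluster. Its signals were 0.234 on the G2WT array and 0.0306 on the array labelled G2KO, and neither of the other arrays gave a signal clear of background. The G1G2WT array was at least 22.9-fold below the G2WT array. Hist1h1a, a linker histone gene, had 0.441, 0.160, 0.0428 and 0.0665, a log2 ratio of -3.36 between the WT arrays. Hist2h2bb had 1.08, 0.474, 0.109 and 0.173 (log2 ratio -3.31), and Hist2h2be 0.258, 0.0525, 0.0335 and 0.0319 (-2.95). Hist1h1b, whose signals are given above, had a ratio of -3.15. In all of these but Hist3h2ba, which had no ratio in DKO, the WT arrays lay further apart than either mutant from its own WT.

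The classes were not uniform. Of 15 H2A probes 14 were at least 2-fold lower in the G1G2WT array, of 11 H4 probes 8, of 8 H3 probes 4, of 6 H1 probes 3 and of 10 H2B probes 4. The class medians were -1.83 for H2A, -1.82 for H4, -1.60 for H1, -1.53 for H3 and -0.61 for H2B. Within H2A the brightest probes agreed closely, from -1.74 for the brighter probe of Hist1h2ak to -2.02 for Hist1h2an, but these share sequence, as shown above, and are not independent measurements.

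**Figure D2:**
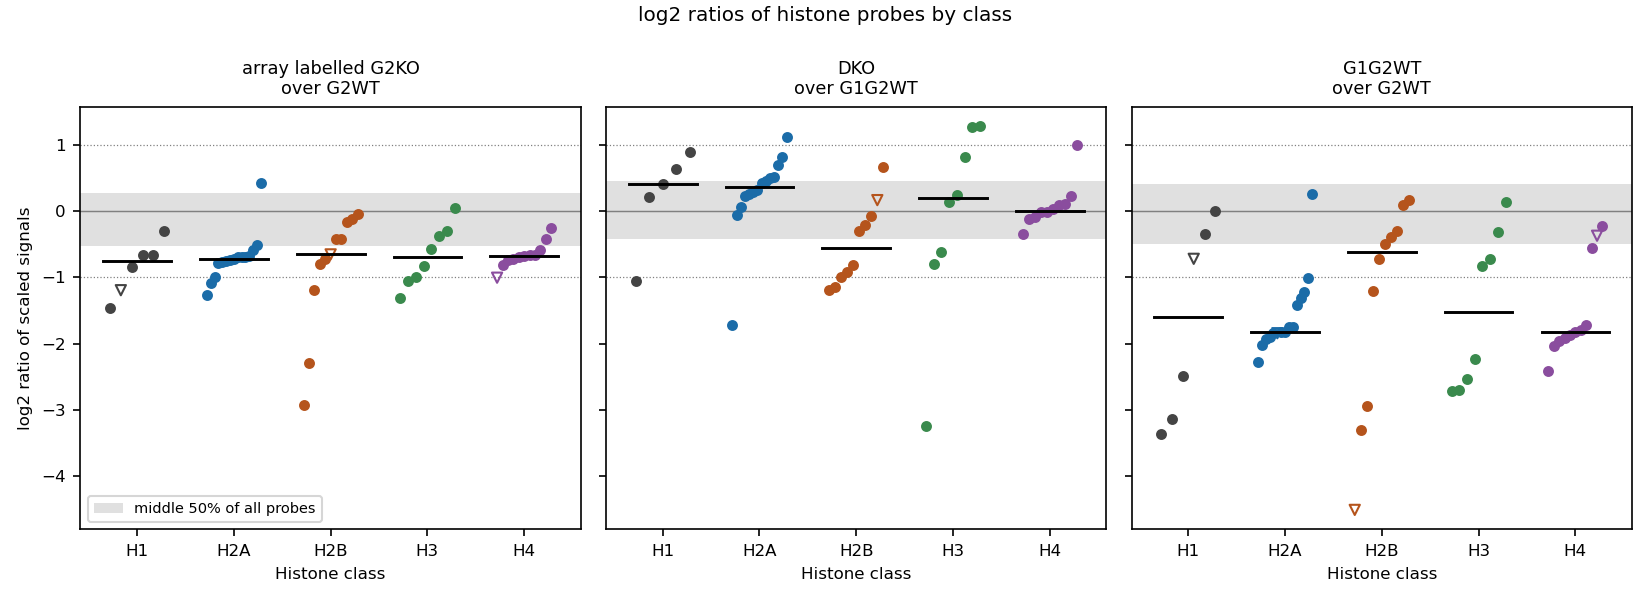
log2 ratio of each histone probe (points) by class in the 3 comparisons, with class medians (black lines), the middle 50% of all probes (grey band) and dotted lines at 2-fold. Open triangles are limits where 1 of the arrays was not well above background. Between the WT arrays (right) 33 of 50 probes lie at or below -1.

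The other 17 probes did not differ by 2-fold between the WT arrays. Above 0 were 5 of them, Hist2h2aa1 (0.26), Hist1h2bc (0.17), Hist1h3c (0.14), Hist1h2be (0.09) and Hist1h1c (0.01). Hist2h2aa1 had signals of 4.13, 2.40, 4.93 and 5.16, and Hist1h2be had 0.143, 0.139, 0.153 and 0.0870. The probe named for the near-identical gene Hist2h2aa2, at the end of the coding region, had 88.0, 51.9, 23.0 and 37.4, a ratio of -1.93. The probe of Hist2h2aa1 (chr3:96049949-96050008) holds the stem-loop near its start, lies mostly beyond it, and is placed just downstream of that of Hist2h2aa2 (chr3:96049837-96049896) in the positions given. Both are placed on the plus strand, whereas the promoter found for Hist2h2aa2 lies on the minus strand and that of Hist2h2aa1 on the plus strand. These probes may thus read the same gene, so their ratios cannot be taken as those of different genes.

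Some of the 17 lay beside probes that were 2-fold lower or more, and others beside each other, as Hist1h2bc (0.17) and Hist1h1t (-0.35) did. Whether they were spread evenly was not tested. In the Hist1 cluster, Hist1h1c (chr13:23832018-23832077) and Hist1h3c (chr13:23837328-23837387), at 0.01 and 0.14, lie beside Hist1h2bb (chr13:23838639-23838698), at -1.21, and Hist1h2ab (chr13:23843392-23843451), at -2.28. All 4 are intervals of probes. No gene model of that build was used, so the part of the gene they fall in is not given.

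**Figure D3:**
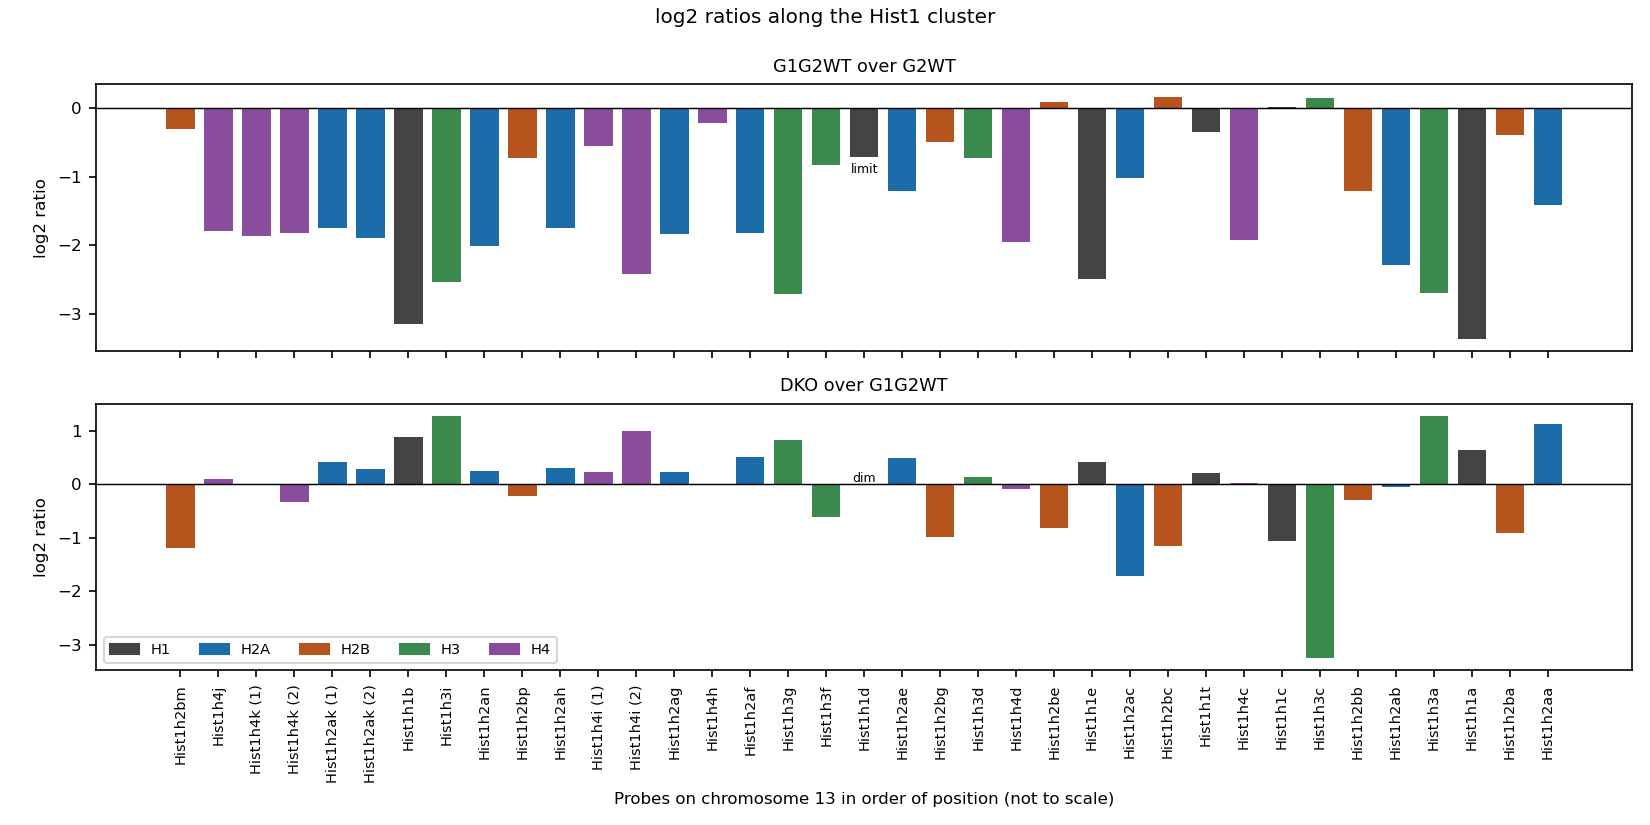
log2 ratios of the 37 probes of the Hist1 cluster on chromosome 13, in order of position and not to scale, between the WT arrays (top) and in DKO against its WT (bottom). Colours give the histone class, "limit" marks a ratio with 1 array not well above background and "dim" a probe that was so on both. Hist1h1c and Hist1h3c, near 0 at the top, stand among neighbours that are 2-fold lower or more.

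Between the array labelled G2KO and its WT array, the question is what loss of cyclin G2 does to gene expression in MEFs. Histone signals were lower on the array labelled G2KO for 49 of 51 probes, against 60.1% of all probes. The median log2 ratio was -0.70, a 1.62-fold difference, against -0.16 over all probes, and the middle 50% of histone probes lay between -0.83 and -0.54. Past 2-fold lower were 10 of 51 (19.6%), where 8.24% of all probes were, and none was 2-fold higher (8.63% of all probes, 16.9% in either direction). Past 4-fold were 2, against 5.5% of all probes. None of the 19 probes over the 75th percentile on all 4 arrays was among the 10.

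The lowest ratios were those of Hist3h2ba (-2.94) and Hist2h2be (-2.30), then Hist1h1a (-1.46), Hist1h3a (-1.31) and Hist2h2ab (-1.26). Hist1h3a had signals of 0.0797, 0.0321, 0.0122 and 0.0298 and Hist2h2ab had 0.0368 on G2WT, 0.0154 on the array labelled G2KO and 0.00857 on DKO, and lay at background on G1G2WT. All 5 lay below the 75th percentile on every array. Only 2 probes had a ratio above 0. Hist1h2ae had signals of 0.0481, 0.0651, 0.0207 and 0.0293 (0.43), and Hist1h3c had a ratio of 0.05. Next came Hist1h2be (-0.05), Hist1h2bc (-0.12) and Hist1h2bg (-0.16), the last with signals of 0.0658, 0.0587, 0.0466 and 0.0234. The class medians lay between -0.76 for H1 and -0.65 for H2B, closer together than between the WT arrays.

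The direction depended on the WT array. Against the G1G2WT array, the array labelled G2KO was higher in histone signals, with a median log2 ratio of 1.07 and 27 of 48 probes at least 2-fold higher, against 4.11% of all probes. If the names of the G2 pair were switched, these would be the values for the WT arrays. With the mean of the WT arrays as the reference, the median was 0.13.

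The DKO comparison asks the same for loss of both cyclins. The histone genes as a group lay close to their WT level in DKO. Of 47 probes compared, 5 were at least 2-fold lower and 3 at least 2-fold higher, where 9.73% and 10.6% of all probes were, so the shares (10.6% and 6.38%) were near or below the background. Together, 17.0% of the histone probes were past 2-fold, against 20.3% of all probes, and 1 was past 4-fold, against 7.91%. Below 0 were 19 of 47, against 48.1% of all probes. The median log2 ratio was 0.14, against 0.02 over all probes. Against the G2WT array it was -1.44, with 38 of 51 probes at least 2-fold lower, against 12% of all probes.

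The lower genes were Hist1h3c (-3.25), Hist1h2ac (-1.71), Hist1h2bm (-1.19), Hist1h2bc (-1.15) and Hist1h1c (-1.06). Hist1h2ac had signals of 0.0710, 0.0357, 0.0352 and 0.0107, so DKO was lowest. For Hist1h3c the DKO array was 9.49-fold below its WT, and the other 3 arrays lay within 0.14 of each other on the log2 scale. Its related probe Hist1h3f, with the shared run of 36 bases, had signals of 0.261, 0.201, 0.147 and 0.0961 and a DKO ratio of -0.61. Below 0 in DKO were 8 of 10 H2B probes, with a class median of -0.55, against 2 of 14 H2A probes, with a class median of 0.37. The H2A probes named above as sharing sequence were all above 0 in DKO and are not independent measurements.

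The higher genes were Hist1h3a (1.29), Hist1h3i (1.27) and Hist1h2aa (1.13), followed by the dimmer probe of Hist1h4i (1.99-fold) and Hist1h1b (0.89). On the G1G2WT array Hist1h3a lay near the lowest signal well above background, at 0.0122 against 0.0102, with a spot error of 21.8%. Hist1h3i had signals of 0.229, 0.110, 0.0393 and 0.0950. Hist1h2aa, known as a testis H2A, had 0.131, 0.0783, 0.0491 and 0.107. The Hist1h4i probe had 0.482, 0.298, 0.0901 and 0.180. In each of these genes the G1G2WT array was the lowest of the 4, and DKO lay below the G2WT array.

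A limma fit over all 4 arrays took its error from the pair of WT arrays alone, with 1 residual degree of freedom. At an adjusted p of 0.05 it called 0 of 51 histone probes, and 0 of 30344 probes in all, for DKO and for the array labelled G2KO. Each mutant group of the fit holds 1 array, so unadjusted p-values are not read. The median fitted log2 ratio of the histone probes was -0.77 for DKO and 0.14 for the array labelled G2KO.

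The 5 probes with the whole stem-loop were described as a set because only they hold that motif whole, in the exact letters searched. Between the WT arrays 4 of 5 were at least 2-fold lower, with a median log2 ratio of -2.70. That count stands against 33 of 50 histone probes and 9.9% of all probes. In the G2KO comparison the median was -1.06, and 3 of 5 were at least 2-fold lower, against 10 of 51 histone probes and 8.24% of all probes. All 5 were above 0 in DKO, with a median of 0.82. There 28 of 47 histone probes were above 0, and 48.1% of all probes were below it. The set is small and is counted among the histone probes it is set against, and its difference from the others was not tested. Apart from Hist2h2aa1 its probes were dim to moderate, between 0.0797 and 1.08 on the G2WT array. On the G1G2WT array Hist1h3a lay near the lowest signal well above background. Hist1h3g had 0.287, 0.163, 0.0438 and 0.0776 on the 4 arrays. A polyadenylation signal (AATAAA or ATTAAA, sense strand) was in 4 histone probes, those of Hist1h2ag, Hist1h2be, Hist3h2ba and the brighter probe of Hist1h4i, and in 16.7% of all probes. Their ratios between the WT arrays were -1.83, 0.09, at most -4.52 and -0.55.

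A pair of probes was present for 4 genes. For Hist1h4k the ratios between the WT arrays were -1.87 and -1.82, although the signals differed, at 34.1 and 3.98 on the G2WT array. For Hist1h2ak they were -1.74 and -1.90. For Hist1h4i the probes disagreed, at -0.55 for the probe with the polyadenylation signal (chr13:22132679-22132738) and -2.42 for the other (chr13:22133139-22133198). For Hist2h4 the dimmer probe lay at background on 2 arrays and gives no second measurement.

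Promoters of 41 of the 47 genes were found through their transcript accession in a RefSeq table of assembly GRCm38.p6, each with 250 bases before and 50 after the start. The letters TATAAA, on either strand, were in 61.0% of them, against 13.6% of all promoters of that length. CCAAT was in 87.8% against 37.4%, and the octamer ATTTGCAT in 29.3% against 1.74%. The octamer, which POU2F1 is known to bind, was in 7 of 14 H2A and 5 of 8 H2B promoters and in 0 of 6 H1, 0 of 6 H3 and 0 of 7 H4 promoters. The windows of Hist1h2ae and Hist1h2bg overlap, as do those of Hist1h2aa with Hist1h2ba and of Hist1h2an with Hist1h2bp. The same octamer was counted for both classes in the pairs with Hist1h2bg and Hist1h2ba. CCAAT, which NF-Y is known to bind, was in 2 of 7 H4 promoters and in every promoter of the other classes. These are matches of letters and not sites shown to be bound.

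The 150 bases before the start are printed for 3 genes, with these motifs in capitals. Hist1h1b and Hist1h1c are H1 genes that differ between the WT arrays by -3.15 and 0.01, and Hist1h2bb carries all 3 motifs. Hist1h1b is at chr13:21780626-21780775 (minus strand), Hist1h1c at chr13:23738657-23738806 (plus strand) and Hist1h2bb at chr13:23746584-23746733 (plus strand), on GRCm38.p6.

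Hist1h1b: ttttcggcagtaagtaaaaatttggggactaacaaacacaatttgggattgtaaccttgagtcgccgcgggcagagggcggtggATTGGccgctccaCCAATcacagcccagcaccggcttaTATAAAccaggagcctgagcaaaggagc
Hist1h1c: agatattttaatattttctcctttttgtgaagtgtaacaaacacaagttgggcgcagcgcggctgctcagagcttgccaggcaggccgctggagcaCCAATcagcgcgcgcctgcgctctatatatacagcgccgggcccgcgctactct
Hist1h2bb: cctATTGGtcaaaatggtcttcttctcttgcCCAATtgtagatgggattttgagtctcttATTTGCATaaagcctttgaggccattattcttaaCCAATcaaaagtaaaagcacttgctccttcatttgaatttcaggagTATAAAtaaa

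Genes that act with the histone genes were taken from fixed lists and read in the same comparisons. The 19 genes of histone mRNA processing had medians near 0. Between the WT arrays 2 (10.5%) were at least 2-fold lower and 1 (5.26%) higher, against 9.9% and 11.8% of all probes. The median log2 ratio was -0.02. Slbp, which encodes the stem-loop binding protein, had signals of 1.76, 1.57, 1.30 and 0.873. Casp8ap2, which codes for a protein of the histone locus body, had 0.862, 0.829, 0.775 and 0.708, nearly level on all 4 arrays. In the G2KO comparison 0 of 19 passed 2-fold, against 16.9% of all probes, and the largest ratios were those of Rdbp (-0.82) and Mblac1 (0.76). In DKO, 3 were lower and 1 higher, 21.1% in all against 20.3% of all probes. Mblac1, a nuclease that acts on histone pre-mRNA, was at -1.35, and Npat, the coactivator of histone genes at the locus body, at 1.38 with the dim signals 0.0155 on WT and 0.0404 on DKO.

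Of 13 genes of histone gene transcription, 3 were at least 2-fold lower between the WT arrays and 0 higher, against 9.9% and 11.8% of all probes. E2f2, an activator of S phase genes, had signals of 0.665, 0.281, 0.138 and 0.300, with log2 ratios of -1.24 in the G2KO comparison and 1.12 in DKO. Nfyb, a subunit of NF-Y, was at -0.93 in the G2KO comparison, where 1 of 13 was 2-fold lower (7.69%, against 8.24% of all probes). Ccne1, cyclin E1, which with Cdk2 phosphorylates NPAT, was at -1.43 in DKO. There 1 of the 13 was 2-fold lower and 1 higher (7.69% each), against 9.73% and 10.6% of all probes. Of 21 histone chaperones and their partners, 5 were at least 2-fold lower between the WT arrays, against 9.9% of all probes, and 1 in each knockout comparison, against 8.24% of all probes in the G2KO comparison and 9.73% in DKO. The largest ratios were those of Nap1l1 (-1.12) and Rbbp4 (-0.96) in the G2KO comparison and of Anp32e (-1.12) and Supt16h (-0.84) in DKO.

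Replication-independent histones, so named because most do not depend on DNA replication, form a list of 15 genes. How evenly each is made through the cell cycle was not tested. Of the 15 genes, 6 were at least 2-fold lower and 2 higher between the WT arrays, against 9.9% and 11.8% of all probes. The median log2 ratio was -0.45. H2afx, the H2A variant phosphorylated at DNA breaks, had signals of 18.1, 11.7, 6.10 and 2.99, highest on the G2WT array and lowest on DKO. H2afj had 101, 63.6, 30.0 and 48.2, values like those of the H2A probes with which its probe shares sequence. The linker histone gene H1f0 was at 2.76 in DKO and H1fx at -1.81, and in the G2KO comparison the largest ratios were H2afy3 (1.72) and H1fx (-1.43).

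DNA replication and mitosis genes bear on the state of growth of the cultures. All 21 DNA replication genes were lower on the G1G2WT array than on the other WT array, against 55.2% of all probes. At least 2-fold lower were 8, against 9.9% of all probes, and the median log2 ratio was -0.91. All 10 mitosis genes were at least 4-fold lower, against 2.65% of all probes, with a median of -3.04. In the G2KO comparison the medians were -0.44 and -0.77. Prim1 (-1.21) and Mcm2 (-1.20) had the largest ratios in the former list and Bub1 (-1.44) and Aurkb (-1.18) in the latter. In DKO they were -0.33 and 0.18, with Rrm2 (-0.99), Mcm3 (-0.99), Aurkb (0.99) and Ccnb1 (0.64) furthest from 0. The summed level of the mitosis genes was 97.7, 60.0, 12.5 and 13.8 on the 4 arrays in the order used above. It was highest on the G2WT array, as most histone probes were. In RNA of whole cultures, fewer cells in S phase and less histone RNA per cell cannot be told apart, and the part of the share of cycling cells in the histone signals was not tested.

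Of the inhibitors of cyclin-dependent kinases, Cdkn1a, the p53 target p21, had signals of 8.20, 0.644, 0.572 and 5.00, with log2 ratios of -3.67 in the G2KO comparison and 3.13 in DKO. Cdkn2a was at 10.60 in the G2KO comparison, Cdkn2b at 9.15 as a lower limit, and Cdkn1c at -5.05 in DKO.

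**Figure D4:**
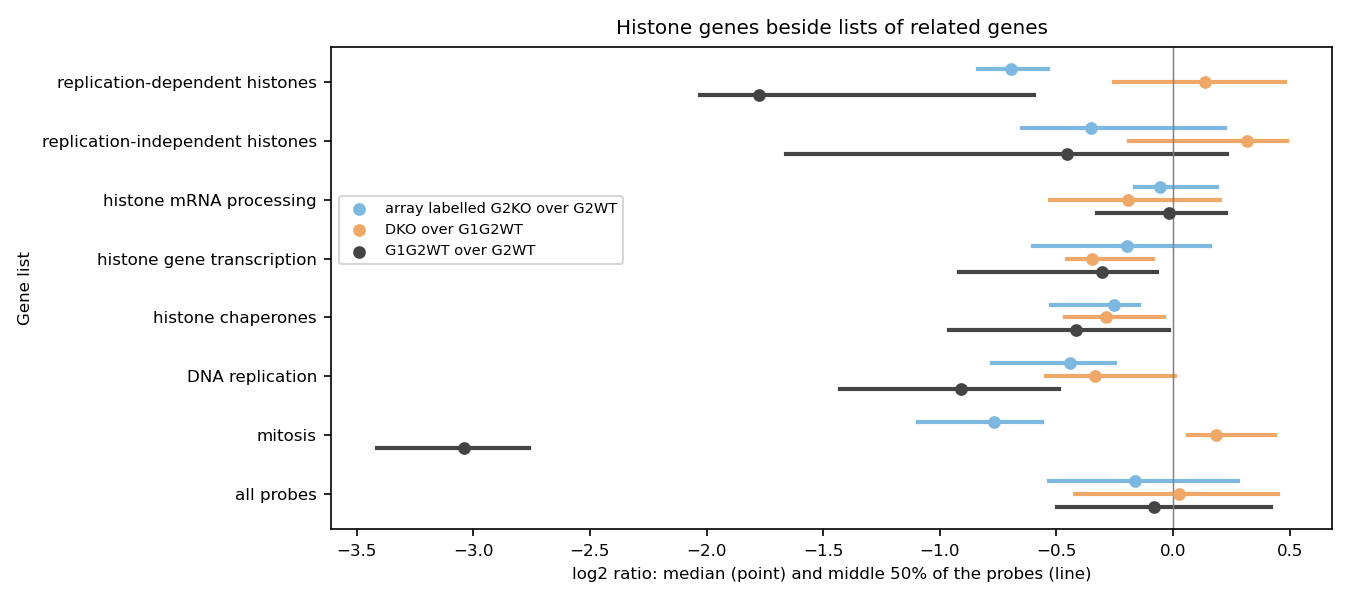
Median log2 ratio (points) and middle 50% (lines) of the replication-dependent histone probes, 6 lists of related genes and all probes in the 3 comparisons. Between the WT arrays the histone probes lie at -1.78, the DNA replication genes at -0.91 and the mitosis genes at -3.04, with all probes at -0.08.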

How the data were processed

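Labelled RNA of 4 MEF samples was read on single-color Agilent arrays. The authors deposited the processed signal intensity of each spot, made with Agilent Feature Extraction (10.7.3.1 in the file headers, 10.5.1.1 in the submitters' processing notes), which corrected spatial trends with background subtraction off. The study's methods describe dye-swapped arrays for G2KO, while the deposited pair is single-color. The deposited value table holds the same intensities. Their number, 1 array a group, limits the precision. All 4 arrays lay on 1 slide and in 1 scan.

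From these, control spots and outlier spots were left out, intensities were divided by the array's 75th percentile over all non-control spots, and spots of a probe were averaged on the log2 scale. Probes well above background on either array of a pair were compared. On a dim array the lowest signal well above background, or the probe's own where higher, stood in, so the ratio is a limit. Differences of at least 2-fold were counted. For list genes with several probes the brightest by mean log2 signal was used. limma (3.58.1, R 4.3.3) gave Benjamini-Hochberg adjusted p-values. Ratios and the limma fit were tested on simulated data with noise smaller than the spread between the WT arrays. That spread was an SD of 1.19 in log2 ratio over all probes. The simulation checks the code and not how the fit performs at the noise of these arrays. The ratios were computed in Python 3.11.15 (pandas 2.3.3).

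Genes given with values on all arrays were the 3 brightest of each class and the 5 highest and 5 lowest ratios of each comparison. Of each list, the 2 genes with the largest ratio in each knockout comparison were named, with Slbp, Npat, Casp8ap2 and H2afx. Other members were chosen after their values were seen. The members and lists were chosen with earlier results of these data known. The RefSeq table held 46 of the 47 genes. Alternatives were another background correction, scalings, filters, folds and WT arrays, and 1 chosen after seeing the data, the probes over the 75th percentile on all arrays.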

Additional observations from a re-analysis of the deposited data

Results flagged for a closer look

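In the knockout comparisons, 2 histone genes lay past 2-fold in opposite directions. Hist1h3a had a log2 ratio of -1.31 in the array labelled G2KO against G2WT and 1.29 in DKO against G1G2WT, and Hist1h3i had -1.06 and 1.27. The Hist1h3a signal on the G1G2WT array, 0.0122, lay near the lowest signal well above background there, 0.0102, with a spot error of 21.8%. Each comparison has 1 array on either side and a different WT array, and the difference between the comparisons was not tested.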

How the results depend on the processing

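No paired analysis was possible because each genotype has 1 array and the labels give no replicate numbers. In the G2KO comparison the 10 histone probes past 2-fold were all lower. That count became 5 with normexp background correction, 2 without scaling, 35 at 1.5-fold and 2 at 4-fold, all lower. It became 28 against the G1G2WT array, 27 of them higher, and 1, which was higher, against the mean of both WT arrays. Among probes over the 75th percentile on all 4 arrays, a subset chosen after seeing the data, it became 0. In the same comparison the median of -0.70 became -0.55 with quantile normalization, -0.20 without scaling, 0.13 against the mean of both WT arrays and 1.07 against the G1G2WT array. For DKO, the 8 probes past 2-fold, 5 lower and 3 higher, became 4 with normexp, 20 at 1.5-fold and 1 at 4-fold. They became 38 against the G2WT array, 15 against the mean of both and 3 in the bright subset, all lower. The median of 0.14 became -1.44 against the G2WT array and -0.76 against the mean. Between the WT arrays, the 33 probes became 14 at 4-fold and 13 in the bright subset, and the median of -1.78 became -1.65 with normexp, -1.44 with quantile normalization, -1.94 with scaling to the median and -1.53 without scaling. The cause of these changes was not tested, apart from other thresholds, subsets and WT arrays, which change the count by construction. Without scaling the median of all probes moved by 0.50 in the G2KO comparison, by -0.08 in DKO and by 0.25 between the WT arrays. Relative to that median, the histone probes stayed at -0.54 to -0.43 in the G2KO comparison, 0.09 to 0.16 in DKO and -1.70 to -1.36 between the WT arrays over these scalings and normexp. limma called 0 histone probes under each of its alternatives, in a design with 1 residual degree of freedom.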
